A study of Mus musculus with 2 samples.

Results

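Akr1b7, Akr1c18, Akr1b3, Akr1a1, Akr1b8, Akr1c6 and Akr1c14 are 7 genes of the aldo-keto reductase superfamily, and they were examined here in the adrenal gland of the mouse. They were taken by gene name from the deposited tables of transcript models, with every model of each gene, and they are 7 of 18177 annotated genes with at least 1 read. The members held 5630 reads in 91 of 112323 transcript models in replicate 1 and 6499 reads in 111 of 112820 models in replicate 2. The data are long-read RNA-seq from the ENCODE project, in which 1 read spans much or all of 1 RNA. The single group was adrenal gland tissue of B6CASTF1/J male mice, an F1 hybrid strain, at 14 days of age, with no treatment named in the labels. It was measured in 2 libraries labelled biological replicates 1 and 2, so there is no contrast between conditions. The labels give the same donor record to both libraries and the wording "3x Males" with the numbers 3 and 4 on the biosamples, and they do not state whether the tissue came from separate or pooled animals. Every test below therefore compares the 2 libraries, covers counting error only, and says nothing of a condition.

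Aldo-keto reductases are small soluble enzymes that use NADPH to reduce aldehydes and ketones to alcohols, and many of them act on steroids, sugars or prostaglandins. In the mouse adrenal cortex, Akr1b7 is an abundant, ACTH-responsive gene of the steroid-producing zones. Akr1c18 encodes 20alpha-hydroxysteroid dehydrogenase, which inactivates progesterone, and it is the usual marker of the X-zone, the inner juvenile layer of the cortex that regresses at puberty in males.

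The libraries held 981697 and 1003061 reads. ERCC spike-in RNAs, added at known amounts, took 1.72% and 1.79% of them, and read levels below, in counts per 1000000 (CPM), are scaled to the 964815 and 985101 other reads. A count of 0 allowed up to 3.11 CPM in replicate 1 and 3.05 CPM in replicate 2 (3 reads), and the intervals and floors cover counting error only. The tissue label matched its markers: the cortex gene Cyp11a1 stood at 15606 and 18158 CPM, and chromaffin, or medullary, genes summed to 8170 and 7941 CPM. The libraries differed in liver transcripts: all 8 liver markers were higher in replicate 2, and together they made up 754 CPM in replicate 1 against 15655 CPM in replicate 2, which is 20.8 times as high. Fat markers summed to 10381 and 10203 CPM, while 5 of 6 kidney markers had 0 reads and the sixth, Aqp2, had 2 and 4. In bulk tissue, fewer cells of a type and less RNA per cell cannot be told apart.

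The genes lie in 3 places in the mm10 genome (GENCODE M21 annotation). Akr1b3 (chr6:34302434-34317478, minus strand), Akr1b8 (chr6:34354119-34368463, plus strand) and Akr1b7 (chr6:34412334-34423142, plus strand) share a cluster on chromosome 6. Akr1c14 (chr13:4049011-4090688, plus strand), Akr1c18 (chr13:4132615-4150654, minus strand) and Akr1c6 (chr13:4434306-4457877, plus strand) share a cluster on chromosome 13. Akr1a1 stands alone on chromosome 4 (chr4:116636510-116651680, minus strand). All 7 are annotated as protein coding. The top annotated transcripts of the Akr1b genes each had 10 exons and 948 coding bases without the stop codon, and those of the Akr1c genes had 9 exons and 969 coding bases. Over the coding sequence, Akr1b7 was 85.7% identical to Akr1b8 and 73.0% to Akr1b3, and Akr1c18 was 76.7% identical to Akr1c6 and 76.0% to Akr1c14. The longest identical run between Akr1b7 and Akr1b8 was 52 bases, short beside the 1281 bases of the Akr1b7 transcript.

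Akr1c18 carried the main structural finding, and the sequences around its exon 5 are shown because reads divided there. Lower case in the first pair below is the upstream exon (its last 30 bases) and capitals are the first 30 bases of exon 5, which Akr1c18-201 joins to exon 4 and Akr1c18-202 joins to exon 3. In the third line, exon 5 (chr13:4142127-4142249, minus strand) is given whole, with the first ATG in the reading frame in capitals. All sequences are 5′ to 3′ from the GENCODE M21 transcripts.
Akr1c18 exon 4 to exon 5: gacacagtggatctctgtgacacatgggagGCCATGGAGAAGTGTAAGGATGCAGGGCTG
Akr1c18 exon 3 to exon 5: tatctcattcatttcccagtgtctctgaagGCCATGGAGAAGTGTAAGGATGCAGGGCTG
Akr1c18 exon 5: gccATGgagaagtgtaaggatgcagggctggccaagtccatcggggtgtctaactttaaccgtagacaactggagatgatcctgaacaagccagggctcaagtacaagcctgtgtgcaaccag

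Reads of Akr1c18 fell into 2 large groups, one that began in exon 1 and one that began no further upstream than exon 5 or the intron before it. The 9-exon transcript Akr1c18-201 had 1030 of 2011 reads in replicate 1 and 2145 of 4068 in replicate 2, or 51.2% (95% Wilson interval 49.0 to 53.4%) and 52.7% (51.2 to 54.3%). A 5-exon structure of exons 5 to 9 had 878 and 1683 reads, or 43.7% (41.5 to 45.8%) and 41.4% (39.9 to 42.9%). The intervals of the 5-exon share overlapped between the libraries, and so did those of Akr1c18-201. The annotated transcript Akr1c18-202, which skips exon 4, had 53 and 105 reads, 2.64% (2.02 to 3.43%) and 2.58% (2.14 to 3.11%). Exon 4 is 78 bases long, a multiple of 3, so its loss keeps the reading frame.

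**Figure D1:**
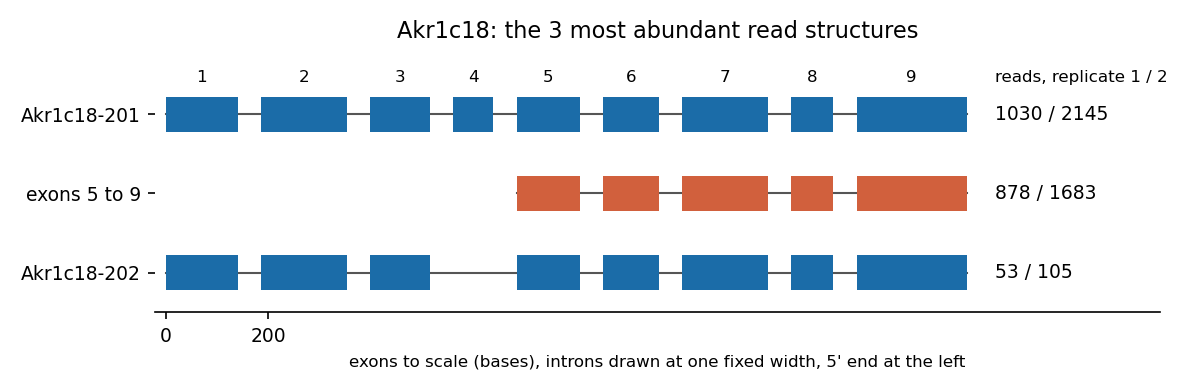
Exon structure of the 3 read structures of Akr1c18 with the most reads, 5′ end at the left, with exons to scale in bases and introns at 1 fixed width; reads in replicate 1 and replicate 2 stand at the right. The 5-exon structure (878 and 1683 reads) lacks exons 1 to 4, and Akr1c18-202 (53 and 105 reads) lacks exon 4 alone.

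By the first exon reached, the break in Akr1c18 lay at 1 exon. Exon 1 was the first exon reached by 54.9% and 56.5% of its reads, and exon 5 by 886 reads (44.1%) and 1694 reads (41.6%). Each of the other 7 exons was the first one reached by 1 to 7 reads in replicate 1 and by 3 to 16 reads in replicate 2. Exon 5 was in 99.5% and 98.6% of reads, whereas exon 4 was in 52.7% and 54.4%. The deposited 5-exon model begins at the first base of exon 5. Of all truncated multi-exon models that keep the 3′ end of an annotated transcript, 86.5% in each library also began exactly at an annotated exon start, and the start of each single read was not analysed here.

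Akr1c18 ranked high on this measure among well-covered genes. Its most frequent truncated structure held 42.1% of its reads over both libraries, rank 29 of 1894 genes with at least 200 reads, where 1.53% of genes had a share as large and the median was 1.31%. The same value was 1.02% for Akr1b7, 1.28% for Akr1a1 and 0.719% for Akr1b8. The full-splice share counts reads whose model was classed as known or as new, and a new model need not reach exon 1. It was 55.2% and 56.5% for Akr1c18 beside a median of 89.2% over 6033 genes, and 8.65% of those genes had a lower value. RNA that was cut before sequencing and RNA that began at an internal start site cannot be told apart from these models.

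**Figure D2:**
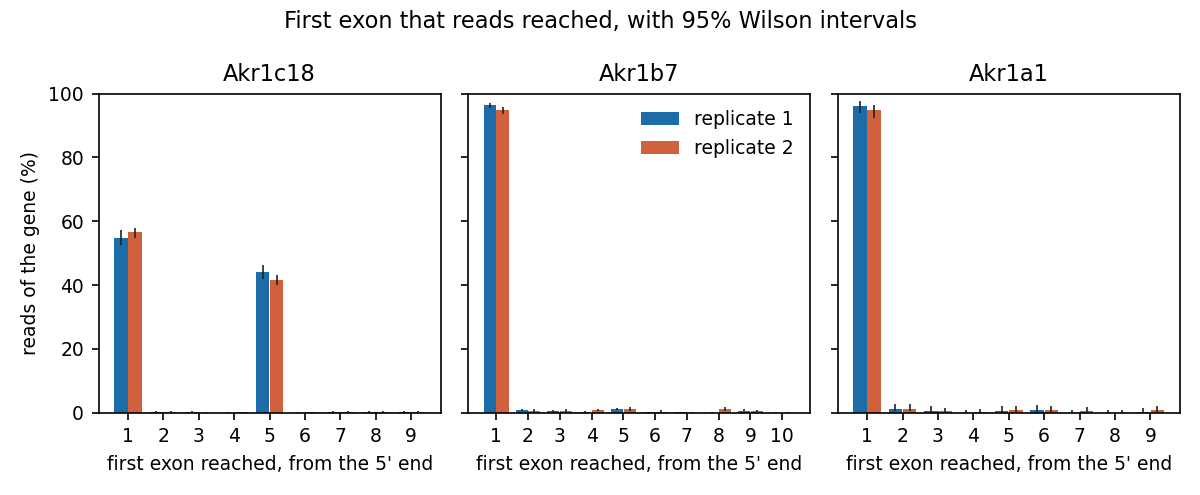
Percentage of reads of Akr1c18, Akr1b7 and Akr1a1 by the first exon they reached (exon 1 is the 5′ end), in replicate 1 (blue) and replicate 2 (orange), with 95% Wilson intervals as error bars. Akr1c18 has a second group at exon 5 (44.1% and 41.6%), while exon 1 holds 96.3% and 94.7% of Akr1b7 reads and 96.1% and 94.7% of Akr1a1 reads.

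The sequence of Akr1c18 holds an ATG close to the first base of exon 5, where the deposited 5-exon model begins. Single read starts were not analysed, so where the reads began relative to this ATG is not known. Exons 5 to 9 hold 522 of the 969 coding bases (53.9%), and the 447 coding bases before exon 5 are a multiple of 3. The first ATG of exon 5 lies 3 bases into the exon and is in the frame of the full protein, with 519 coding bases (53.6%) from it to the stop codon. This is a reading of the sequence, and no protein was measured.

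The same exon is conserved in its paralogs, and it is printed for 3 of them because the ATG is in the same place while the reads are not divided in the same way. Capitals mark bases that differ from Akr1c18 at the same position of the 123-base exon. Akr1c6 (chr13:4447008-4447130, plus strand) differed at 12 positions (90.2% identical), Akr1c14 (chr13:4079054-4079176, plus strand) at 14 (88.6%) and Akr1b7 (chr6:34418994-34419116, plus strand) at 43 (65.0%).
Akr1c6 exon 5: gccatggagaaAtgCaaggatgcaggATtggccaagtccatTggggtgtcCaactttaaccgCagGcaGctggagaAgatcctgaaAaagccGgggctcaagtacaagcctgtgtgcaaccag
Akr1c14 exon 5: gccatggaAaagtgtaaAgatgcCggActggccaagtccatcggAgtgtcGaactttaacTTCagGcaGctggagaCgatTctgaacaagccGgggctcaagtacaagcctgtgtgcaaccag
Akr1b7 exon 5: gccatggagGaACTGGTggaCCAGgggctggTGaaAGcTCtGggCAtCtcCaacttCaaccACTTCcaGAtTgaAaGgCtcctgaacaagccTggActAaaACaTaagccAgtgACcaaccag
Exon 5 was the first exon of 1 of 53 Akr1c6 reads in replicate 2 (1.89%, interval 0.334 to 9.94%) and of 3 of 22 Akr1c14 reads there (13.6%, interval 4.75 to 33.3%). It was the first exon of 30 Akr1b7 reads in replicate 1 (1.05%) and 18 in replicate 2 (1.09%). Of these, 28 and 18 were of a 6-exon structure whose model in replicate 1 began at chr6:34417678, within intron 4, unlike the 5-exon model of Akr1c18. The intervals of Akr1c6 and Akr1c14 in replicate 2 lay below that of Akr1c18 (40.1 to 43.2%). Akr1cl, an aldo-keto reductase outside the 7, was the other well-covered relative with many truncated reads. Exon 5 of its 10 exons was the first one reached by 13.1% of its 2185 reads, and its full-splice share was 59.1% and 53.6%. Over both libraries, the scarcer Akr1c13 had a full-splice share of 65.7% of 35 reads, with exon 5 the first one reached by 8.57%. That of Akr1c20 was 52.2% of 23 reads, with exon 5 the first one reached by 4.35%. Exon 5 of Akr1cl, Akr1c13 and Akr1c20 was not compared in sequence with that of Akr1c18.

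Rarer Akr1c18 structures were also seen in both libraries. A new exon 2 start 84 bases inside the annotated one had 4 and 11 reads, and an exon 4 start 4 bases inside the annotated one had 4 and 8 reads. An exon 6 start 4 bases inside the annotated one had 1 and 7 reads in molecules that began in exon 1, and 4 and 6 reads in molecules that began in exon 5. Introns 3 and 4 were kept together in 4 and 3 reads. Structures found in both libraries held 99.3% of all Akr1c18 reads.

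In level, Akr1c18 was the most abundant of the 7 genes by the mean of the libraries over all reads; over known models only, Akr1b7 came first, at 3006 CPM beside 2405 CPM. It had 2011 reads (2084 CPM) in replicate 1 and 4068 reads (4130 CPM) in replicate 2, a mean of 3107 ± 1446 CPM (SD, n = 2). Replicate 2 was the higher library. The ratio of replicate 2 to replicate 1 was 1.98 (95% exact interval 1.88 to 2.09), with an adjusted p of 3.00e-144 in the two-sided exact binomial test with Benjamini-Hochberg adjustment over 11094 genes with at least 10 reads. Both large read structures were higher in that library: Akr1c18-201 by a ratio of 2.04 (1.89 to 2.20), and the 5-exon structure by 1.88 (1.73 to 2.04). Akr1c18-202 had a ratio of 1.94 (1.38 to 2.75). The full-splice share did not pass the test between the libraries (adjusted p = 0.956, Fisher's exact test), and neither did the share of Akr1c18-201 among full-splice structures, 1030 of 1106 reads (93.1%) and 2145 of 2299 reads (93.3%, adjusted p = 1.00). A structure of exons 5 to 9 that was classed as new in replicate 1 and as truncated in replicate 2 was left out of that share.

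The other X-zone genes on the marker list had few reads. Pik3c2g, a phosphoinositide 3-kinase, had 7 and 12 reads (7.26 and 12.2 CPM), and the thyroid hormone receptor gene Thrb had 6 and 7 reads (6.22 and 7.11 CPM). Neither passed the test, with adjusted p of 0.716 and 1.00 by the exact binomial test. A change of the X-zone share of the tissue was not detectable from these 2 genes at this depth. The 20.8-fold difference in liver transcripts ran the same way as the Akr1c18 difference, and its part in that result was not tested.

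Akr1b7 ran the other way. This aldose reductase-like enzyme had 2862 reads (2966 CPM) in replicate 1 and 1655 reads (1680 CPM) in replicate 2, a mean of 2323 ± 910 CPM (SD, n = 2). Replicate 1 was the higher library. The ratio of replicate 2 to replicate 1 was 0.566 (0.533 to 0.602), 1.77-fold lower, with an adjusted p of 8.30e-76 by the same exact binomial test. Akr1b7 and Akr1c18 therefore exchanged order, with Akr1b7 at rank 15 and Akr1c18 at rank 29 of 18177 genes in replicate 1, and ranks 47 and 13 in replicate 2. Of the 8 cortex markers, 1 was higher in replicate 2 and 3 were higher in replicate 1, and their median log2 ratio was -0.02. The lowest of their ratios was that of the glucocorticoid-forming enzyme gene Cyp11b1, 0.782 (0.752 to 0.813), and the highest that of Cyp11a1, 1.16 (1.14 to 1.19). Star was called higher in replicate 1 but changed sign with TMM and DESeq2 scaling (log2 ratios of 0.06 and 0.02), and Cyp11a1 changed sign with full-splice reads alone (-0.02). The Cyp21a1 call, also higher in replicate 1, was lost with TMM (adjusted p = 0.177). Of 4 markers of the zona glomerulosa, the outermost layer, Cyp11b2 (322 and 229 CPM) and Dab2 (316 and 215 CPM) were higher in replicate 1 and the others did not pass; the Cyp11b2 call was lost with TMM (adjusted p = 0.0960). Their part in the Akr1b7 result was not tested.

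**Figure D3:**
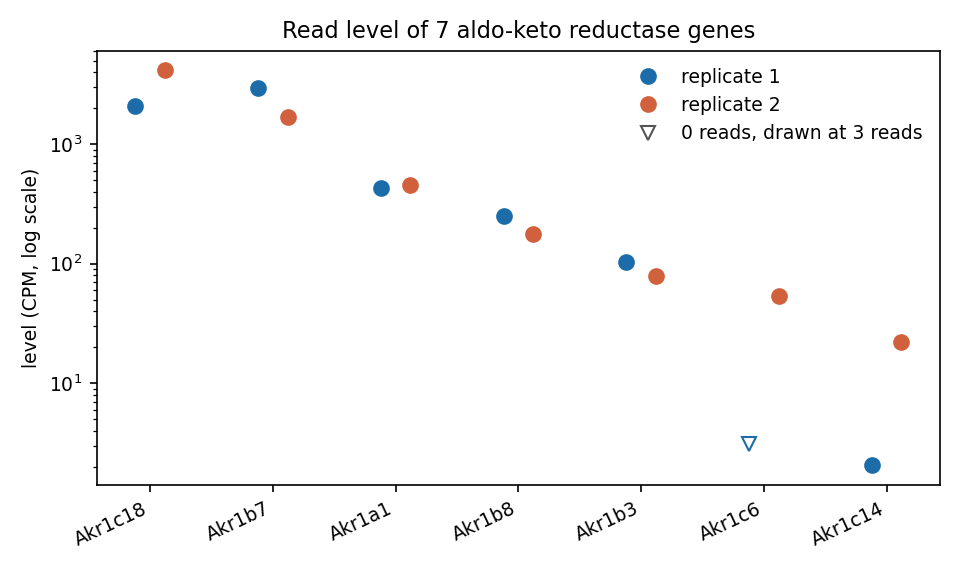
Level of each of the 7 genes in CPM on a log scale, in replicate 1 (blue) and replicate 2 (orange), in order of the mean level. An open triangle marks 0 reads, drawn at 3 reads (3.11 CPM). Akr1c18 and Akr1b7 exchange order between the libraries, and the largest gaps are at Akr1c6 (0 and 53.8 CPM) and Akr1c14 (2.07 and 22.3 CPM).

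The 250 bases before the RefSeq start of Akr1b7 (chr6:34412112-34412361, plus strand) and of Akr1c18 (chr13:4150647-4150896, minus strand) are printed because these genes were the most abundant and moved in opposite directions. They come from the RefSeq promoter table for GRCm38.p6, which held 6 of the 7 genes. Capitals mark matches to 5 motifs searched on both strands: AAGGTCA (the extended half-site bound by Nr5a1, the cortex transcription factor), TGACGTCA (cyclic AMP response element), TATAAA (the TATA box), CCAAT (the CCAAT box) and TGACNNNGC (antioxidant response element core).
Akr1b7 upstream: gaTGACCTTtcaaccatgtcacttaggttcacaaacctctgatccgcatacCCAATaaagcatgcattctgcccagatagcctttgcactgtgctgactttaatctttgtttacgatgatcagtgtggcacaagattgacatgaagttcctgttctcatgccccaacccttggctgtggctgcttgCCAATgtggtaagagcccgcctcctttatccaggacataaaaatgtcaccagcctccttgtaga
Akr1c18 upstream: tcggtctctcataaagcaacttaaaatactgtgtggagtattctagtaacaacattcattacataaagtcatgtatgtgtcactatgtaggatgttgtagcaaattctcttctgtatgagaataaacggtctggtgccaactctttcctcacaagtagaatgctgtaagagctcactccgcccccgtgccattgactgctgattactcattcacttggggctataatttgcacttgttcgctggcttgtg
Akr1b7 held AAGGTCA on the opposite strand, beginning 248 bases before the start, and CCAAT beginning 199 and 64 bases before it. Of 32544 promoters of 300 bases in the table, 4.71% held AAGGTCA, 37.4% the CCAAT box, 13.6% the TATA box, 12.4% the antioxidant response element core and 1.80% the cyclic AMP response element. These windows run 50 bases past the start, and none of the 5 motifs was found in that of Akr1c18 or of Akr1a1. Akr1b8 held the TATA box on the opposite strand, Akr1c6 held the TATA and CCAAT boxes, and Akr1c14 held the CCAAT box. No motifs overlapped in Akr1b7, and a match is a description of letters, not evidence of binding.

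Akr1b7 reads were mostly whole. Akr1b7-201, its one annotated transcript, had 2686 reads (93.9%) and 1508 reads (91.1%). The full-splice share was 96.4% and 94.4%, and the difference did not pass the test over all genes (p = 0.00302, adjusted p = 0.134, Fisher's exact test). The share of Akr1b7-201 among full-splice reads was 97.4% and 96.5%, which did not pass the same test (adjusted p = 1.00).

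New Akr1b7 structures held few of its reads. An exon 9 that ended 14 bases past its annotated 3′ end had 35 and 21 reads, and an exon 8 that began 26 bases inside its annotated start had 3 and 3. Intron 3, of 1048 bases, was kept in 18 of 2794 reads that spanned it in replicate 1 (0.644%, interval 0.408 to 1.02%) and in 34 of 1605 in replicate 2 (2.12%, interval 1.52 to 2.95%). These intervals did not overlap, but the 34 reads included 12 of a 7-exon structure whose replicate 2 model reached back to exon 3. The same structure had 8 reads in replicate 1, where its model began within intron 3 and was not counted as spanning it. The intervals of intron 8, kept in 0 of 2838 reads (0 to 0.135%) and 16 of 1637 reads (0.603 to 1.58%), did not overlap either. All 16 were of 1 single-exon model that began at exon 8 and kept introns 8 and 9. Replicate 1 had a single-exon model of 16 reads that began at exon 9 and kept intron 9. Both contrasts thus depended on where the deposited models began, and single read starts were not analysed. The intervals were not adjusted for the number of introns, and kept introns were not tested over all genes. Over all annotated genes, the full-splice share was 84.0% in replicate 1 and 80.4% in replicate 2. A structure that joined an exon at chr6:34392017-34392139, which GENCODE annotates as exon 5 of Akr1b10, to exons 6 to 10 of Akr1b7 had 2 and 3 reads. Akr1b10 lies next to Akr1b7 and was 89.2% identical to it over the coding sequence, so alignment between these paralogs is uncertain for those reads. On the opposite strand within the Akr1b7 locus, models outside the annotation had 18 and 19 reads and the annotated Gm13857 had 5 and 11.

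Akr1a1, the aldehyde reductase that makes gulonate for ascorbate synthesis, had the ratio nearest to 1 of the 7 when scaled to total reads, though not with TMM. It had 412 reads (427 CPM) in replicate 1 and 449 reads (456 CPM) in replicate 2, a mean of 441 ± 20.3 CPM (SD, n = 2). The values were close, with a ratio of 1.07 (0.932 to 1.22) that did not pass the exact binomial test (adjusted p = 0.702). Akr1a1-201 had 384 and 413 reads, and its next structure, which lacked exon 1, had 5 and 6. A new structure without exon 3 had 5 and 2 reads. The full-splice share was 96.1% and 94.7% (adjusted p = 0.955, Fisher's exact test).

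Akr1b8 and Akr1b3 are both close relatives of Akr1b7. Akr1b8, an aldose reductase-like enzyme known as a growth factor-regulated gene, had 243 reads (252 CPM) in replicate 1 and 174 reads (177 CPM) in replicate 2, a mean of 214 ± 53.2 CPM (SD, n = 2). It was higher in replicate 1, with a ratio of 0.701 (0.574 to 0.856) and an adjusted p of 0.00691 by the exact binomial test. That call was lost with the libraries scaled by TMM (adjusted p = 0.130) and by DESeq2 size factors (adjusted p = 0.0706). Akr1b8-201 held 226 and 153 reads, and its full-splice share was 96.3% and 93.1% (adjusted p = 0.821, Fisher's exact test). A new structure that kept intron 5 had 4 and 6 reads, and single-exon reads of exon 10 numbered 4 and 6.

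Akr1b3 is aldose reductase itself, which turns glucose into sorbitol in the polyol pathway. It had 100 reads (104 CPM) in replicate 1 and 78 reads (79.2 CPM) in replicate 2, a mean of 91.4 ± 17.3 CPM (SD, n = 2). Replicate 1 had the larger value, with a ratio of 0.764 (0.561 to 1.04) that did not pass the exact binomial test (adjusted p = 0.342). Akr1b3-201 held 96 and 74 reads, and the full-splice share was 98.0% and 98.7% (adjusted p = 1.00, Fisher's exact test).

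Akr1c6 and Akr1c14 were scarce, and nearly all of their reads were in replicate 2. Akr1c6, a 17beta-hydroxysteroid dehydrogenase of mouse liver, had 0 reads in replicate 1 and 53 reads (53.8 CPM) in replicate 2. It was higher in replicate 2 (adjusted p = 2.66e-14, exact binomial test), with a ratio of 17.3 to a floor of 3 reads in replicate 1. The exact interval of the ratio began lower, at 13.6. Akr1c6-201 held 44 of the reads and a structure of exons 6 to 9 held 5. Akr1c14, a 3alpha-hydroxysteroid dehydrogenase, had 2 reads (2.07 CPM) in replicate 1 and 22 reads (22.3 CPM) in replicate 2, with Akr1c14-201 in 1 and 17 of them. The ratio was 10.8 (2.65 to 94.5), and replicate 2 was higher (adjusted p = 0.00100, exact binomial test). The 8 liver markers differed in the same direction, from 16.8-fold for Fgb to 27.9-fold for Apoa2, and their part in the Akr1c6 and Akr1c14 results was not tested. The Akr1c14 locus overlaps the annotated same-strand gene Gm18857.

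Counted together, 3 of the 7 genes were higher in replicate 2 (Akr1c18, Akr1c6, Akr1c14), 2 were higher in replicate 1 (Akr1b7, Akr1b8) and 2 did not pass the test. Over all 11094 genes tested, 9.17% passed, 4.35% higher in replicate 2 and 4.81% higher in replicate 1. The median log2 ratio was 0.09 over the 7 genes, which is Akr1a1 whether or not Akr1c6 is set at its bound, and -0.15 over all genes tested. TMM and DESeq2 scaling moved that median of all genes to 0.01 and -0.04. With them the share of all called genes that were higher in replicate 2 went from 47.5% to 76.7% and 70.0%. Summed over the 7 genes, the libraries held 5835 and 6597 CPM, a ratio of 1.13 between the 0.566 of Akr1b7 and the 1.98 of Akr1c18. No member passed in the full-splice test, which called 1.21% of 6033 genes, or in the test of the top transcript's share, which called 0.125% of 4817 genes. Of the 73 genes called in the full-splice test, 67 had the higher share in replicate 1 and 6 in replicate 2. Unadjusted, the smallest p of a member in those tests was that of Akr1b7 for the full-splice share, given above. Akr1c6 and Akr1c14 had too few reads to enter them.

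**Figure D4:**
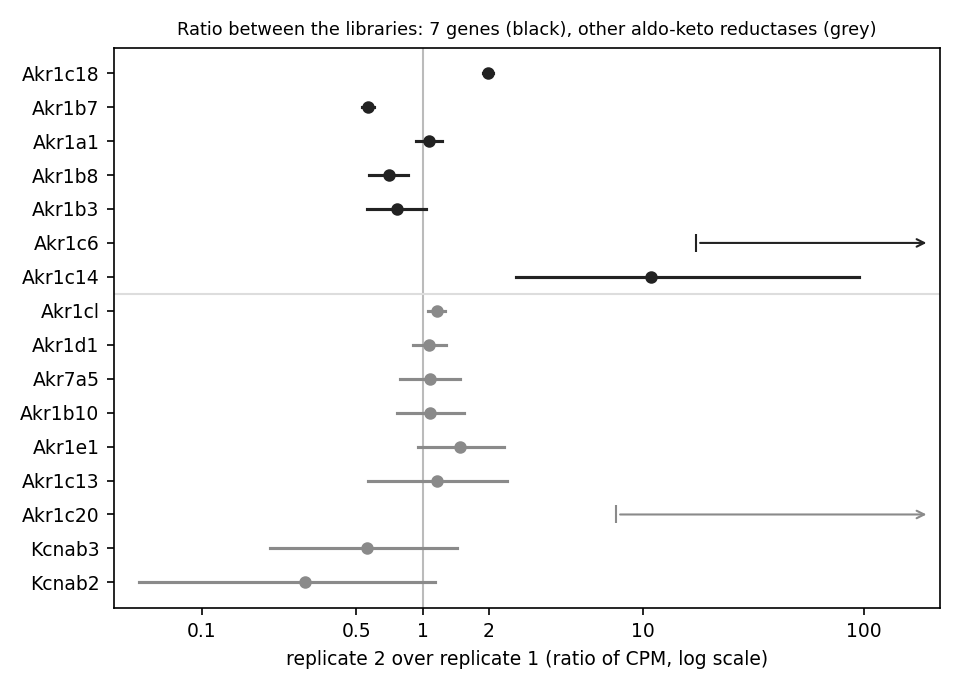
Ratio of CPM, replicate 2 over replicate 1, on a log scale, with 95% exact intervals as lines, for the 7 genes (black) and the other aldo-keto reductases with at least 10 reads (grey). Arrows, which are not intervals, begin at the ratio to a floor of 3 reads for genes with 0 reads in replicate 1 (17.3 for Akr1c6 and 7.51 for Akr1c20). Akr1c18 lies at 1.98 and Akr1b7 at 0.566, on opposite sides of equality.

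Between genes, levels were compared per length, as CPM per kilobase of the top annotated transcript. As 1 long read spans much or all of 1 RNA, this division lowers genes with long transcripts beside their read counts. Akr1c14, with 2436 bases, had a mean of 12.2 CPM before it, beside 26.9 CPM for Akr1c6. The means were 2589 for Akr1c18, 1814 for Akr1b7, 311 for Akr1a1, 158 for Akr1b8, 65.9 for Akr1b3, 19.3 for Akr1c6 and 5.01 for Akr1c14, the same order as in CPM over all reads. Akr1c18 (1737 and 3441) and Akr1b7 (2316 and 1311) overlapped across the libraries, as did Akr1c6 (0 and 38.5) and Akr1c14 (0.851 and 9.17). The neighbouring pairs in between did not overlap.

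The genes with at least 1000 reads whose ratio was nearest to that of Akr1b7, among 261 such genes, were the collagen gene Col3a1 (0.555), Aplp2 (0.598) and Gpx3 (0.533), which encodes a secreted glutathione peroxidase. For Akr1c18 they were the glutathione peroxidase gene Gpx1 (1.75), the mitochondrial cytochrome b gene mt-Cytb (2.26) and the sterol carrier gene Scp2 (1.60). The likeness is the distance between log2 ratios over 2 libraries and is a description only.

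Of 13 other aldo-keto reductases, 9 had at least 10 reads, 2 of these were higher in replicate 2, none were higher in replicate 1, and the median log2 ratio was 0.12. Akr1cl had 1001 and 1184 reads (1038 and 1202 CPM), and replicate 2 over replicate 1 came to 1.16 (1.06 to 1.26), with an adjusted p of 0.0109 by the exact binomial test, a call lost with full-splice reads alone (adjusted p = 0.339). Akr1c20 had 0 and 23 reads, with a ratio of 7.51 to the same floor and an exact interval that began lower, at 5.63. It was higher in replicate 2 (adjusted p = 1.03e-05, exact binomial test). The 8 liver markers were higher in that library too, and their part in the Akr1c20 result was not tested. Akr1d1, the steroid 5beta-reductase, had 262 and 286 reads. Akr7a5 had 80 and 88, Akr1b10 65 and 72, Akr1e1 35 and 53, and Akr1c13 16 and 19. The potassium channel subunit genes Kcnab3 and Kcnab2 had 14 and 8 and 10 and 3 reads. None of these 7 passed the test.

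The routes in which the 7 enzymes take part are read against the 9.17% of all genes that passed. Of 19 prostaglandin genes, 11 were tested and none passed, with a median log2 ratio of 0.21 and a smallest unadjusted p of 0.0561 (Ptgr2, exact binomial test). The most abundant were Ptges3 (140 and 165 CPM), a prostaglandin E synthase and chaperone partner, the prostaglandin reductase Ptgr2 (170 and 136 CPM) and the carbonyl reductase Cbr1 (145 and 121 CPM). Ptgfr, the prostaglandin F receptor, had 0 reads in both libraries.

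Of 8 polyol and ascorbate genes, 6 were tested and 2 were higher in replicate 2, with a median log2 ratio of 0.63. They were Gulo, which catalyses the last step of ascorbate synthesis (12 and 65 reads) and Rgn, which acts just before it (2 and 40 reads). The adjusted p values were 4.09e-08 and 2.73e-08 by the exact binomial test. The sorbitol dehydrogenase Sord, which acts after Akr1b3, had 45.6 and 72.1 CPM and did not pass (adjusted p = 0.140). Khk (60.1 and 89.3 CPM) and Ugdh (82.9 and 66.0 CPM) did not pass either. The liver markers moved with these 2 genes, and their part was not tested.

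Of 18 genes on the list of hydroxysteroid dehydrogenases, steroid reductases and the progesterone receptor, 11 were tested and 2 were higher in replicate 2, with a median log2 ratio of -0.14. These were Hsd11b1, which regenerates glucocorticoid (28 and 72 reads, adjusted p = 4.12e-04), and Rdh5 (1 and 14 reads, adjusted p = 0.0153), both by the exact binomial test. The liver markers were higher in the same library, and their part was not tested. The most abundant were Hsd3b1 (4790 and 4743 CPM), Hsd17b10 (255 and 216 CPM) and Hsd17b4 (243 and 207 CPM). Pgr, the progesterone receptor, had 0 reads in both libraries. Of 12 aldehyde and carbonyl clearance genes, whose median log2 ratio was 0.08, Aldh9a1 alone passed, higher in replicate 1 (99 and 63 reads, adjusted p = 0.0411, exact binomial test). That call was lost with TMM, DESeq2 size factors, known models only and no filter on low counts (adjusted p = 0.203, 0.135, 0.117 and 0.0670). The most abundant of them were the alcohol dehydrogenase Adh1 (2704 and 2708 CPM), the lipid peroxide reductase Gpx4 (1047 and 1149 CPM) and Adh5 (191 and 189 CPM).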

How the data were processed

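The deposited tables hold whole-number read counts per transcript model from TALON, and the matching GTF files give each model's exons on mm10, per the file headers and labels (aligner and program versions: not given in the sources used here). Authors' classes were kept: known reads and the new classes (in catalog, and not in catalog) were counted as full-splice, incomplete splice match and genomic reads as truncated or unspliced. Counts of all models of a gene were summed, spike-ins were left out, and CPM used the remaining reads. Models were matched between libraries by intron chain and numbered along the top annotated transcript (GENCODE M21). Levels are mean ± SD over 2 libraries. Genes with at least 10 reads entered a two-sided exact binomial test of the reads of replicate 2, and shares entered two-sided Fisher's exact tests with at least 20 reads in each library, all with Benjamini-Hochberg adjustment over the whole table and a threshold of 0.05. Log2 ratios had 0.5 reads added. Ratio intervals are Clopper-Pearson and share intervals Wilson, at 95%. The tests were run on simulated reads drawn with counting error alone, so the spread between real libraries was not examined by them. The named genes are all 7 members, every other aldo-keto reductase with at least 10 reads, for each other list the called genes and the 3 highest, and 3 genes nearest in ratio to Akr1b7 and Akr1c18. Ptgfr, Pgr and the cell type markers were named outside that rule, and 1 gene of the lists is not reported here. Members and lists were chosen with earlier results of these data known, and the motifs after the files were read. Tools were Python 3.11.15, scipy 1.17.1, pandas 2.3.3, Biopython 1.88, edgeR 4.0.16 (TMM) and DESeq2 1.42.0 (size factors) in R 4.3.3.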

Additional observations from a re-analysis of the deposited data

How the results depend on the processing

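The number of called genes was 1017 and ranged from 760 (known models only) to 880 (TMM) over 6 alternatives, within 1.5 times throughout, as were the counts of the share tests. Of the tested differences of the members, 56 alternative values kept direction and side of the threshold and 2 lost the call, both for Akr1b8: a log2 ratio of -0.51 became -0.35 with TMM and -0.40 with DESeq2 size factors. Among the other called genes named, 61 values kept direction and call, 8 lost the call (Akr1cl, Aldh9a1, Cyp11b2 and Cyp21a1) and 4 changed sign: Star to 0.06 (TMM) and 0.02 (DESeq2), and Cyp11a1 to -0.04 (known models only) and -0.02 (full-splice models only). The cause was not tested. The difference in full-splice share of Akr1b3 changed sign, from 0.718 to -0.846 percentage points, when known models only counted as whole, with an adjusted p of 1.00 both ways (Fisher's exact test). Mean levels rose beyond 1 SD where the denominator was smaller: with known models only, Akr1a1 went from 441 to 575 CPM and Akr1b3 from 91.4 to 123 CPM. With full-splice models only, Akr1b7 was at 2824 CPM and Akr1c18 at 2249 CPM, the reverse of their order over all reads. Without replicate 1 or 2, the level of Akr1c6 was 53.8 or 0 CPM and that of Akr1c14 22.3 or 2.07 CPM. With 1 library left, no comparison of libraries could be made. No paired analysis was possible because there is 1 group. With 2 libraries and no stated separate animals, the p-values measure only how these libraries differ. At 2 reads or fewer, as for Akr1c6 and Akr1c14 in replicate 1, depth limits the ratio.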
